A study of Mus musculus with 78 samples.

Results

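The genes described here are 8 feedback inhibitors of ERK signalling, the Sprouty genes Spry1, Spry2 and Spry4, the Spred genes Spred1 and Spred2, and the dual-specificity phosphatase genes Dusp4, Dusp5 and Dusp6. They were taken by name from the 17097 genes that the array annotation pairs with a probe set of 1 symbol, and each gene was represented by its probe set with the highest mean over the 78 arrays. A probe set was found for 7 of the 8, and Dusp5 was not analysed here. Of the 7, 6 passed the filter for testing, which asked that a gene lie above the array median on at least 4 arrays, as 11344 genes did. Spry1 lay above the median on 2 of 78 arrays and was not tested. Dusp4 lay above it on 20 arrays, 17 of the LCA and 3 of the RCA. Its RCA arrays alone would not have passed the filter, so it was tested only through the artery in which it was high.

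The RNA was enriched for endothelium by flushing each common carotid artery, and the arteries of 39 mice gave 78 expression arrays. Every mouse had a partial ligation of the left artery (LCA), an operation that leaves the vessel open but with low and disturbed flow. The right artery (RCA) of the same mouse was the control for its LCA. Mice had been given atorvastatin, an inhibitor of cholesterol synthesis, at 10 mg/kg/day, or vehicle, by daily oral dosing that began 2 days ahead of the operation. Tissue was collected 12 h, 24 h, 48 h or 2 weeks after ligation. The 16 groups of treatment, artery and time held 5 arrays each, apart from 4 for each artery under atorvastatin at 48 h. Both treatments and both arteries came from operated mice, so no artery of an unoperated mouse was compared. The mouse strain, age and sex are not stated in these sources.

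Receptor tyrosine kinases pass growth factor signals to RAS and on through RAF and MEK to the kinase ERK, which enters the nucleus and switches on a set of early genes. Among those early genes are inhibitors of the same route, so that a burst of ERK activity limits itself. Sprouty proteins act at the level of the receptors, RAS and RAF, and Spred proteins bring the RAS-inactivating protein neurofibromin to the membrane. Dusp4 and Dusp5 dephosphorylate ERK in the nucleus and Dusp6 does so in the cytoplasm. In endothelium the route is driven mainly by VEGF and FGF receptors and is tied to sprouting and proliferation.

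Markers of 12 cell types were read beside these genes. Of 12 endothelial markers, all had a probe set and 10 lay above the array median on every array, with list means of 8.76 to 9.86 on the log2 scale. The other lists varied between arrays. The macrophage list ran from 3.44 to 9.20, the neutrophil list from 3.35 to 9.99 and the smooth muscle list from 4.88 to 9.83, while 2 of the 3 B cell markers with a probe set, Cd79a and Ms4a1, lay above the median on no array. In RNA of a whole flush, fewer cells of a type and less RNA per cell cannot be told apart. RNA was extracted and profiled in 4 batches, per the labels, which do not assign arrays to them, so batch, time and treatment cannot be told apart.

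The first question was how the feedback genes differed between the ligated and the control artery of the same mouse. Spry4 was lower in the LCA, most at 24 h. Spry2 at 2 weeks had 0.242 of the RCA level under atorvastatin and 0.392 under vehicle. Dusp4 was higher in the LCA at 48 h and 2 weeks in both treatments, and Dusp6 was higher at both times under vehicle, while under atorvastatin it did not pass. Spred1 passed the test at no time. With limma and Benjamini-Hochberg adjustment over all tested genes, 8 of 24 comparisons of a gene at a time passed an adjusted p of 0.05 under atorvastatin and 9 of 24 under vehicle. The share of all tested genes that passed was 1.68% at 12 h, 13.1% at 24 h, 31.8% at 48 h and 29.9% at 2 weeks under atorvastatin. Under vehicle it was 2.39%, 14.3%, 36.2% and 27.8% at the same times. Against this background the feedback genes called were 1, 1, 2 and 4 of 6 under atorvastatin, and 0, 1, 4 and 4 of 6 under vehicle. All these counts include the Dusp4 calls at 48 h and 2 weeks, of a gene that passed the filter only through its LCA arrays. The median difference of all tested genes lay between -0.03 and 0.03 log2 in every group.

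**Figure D1:**
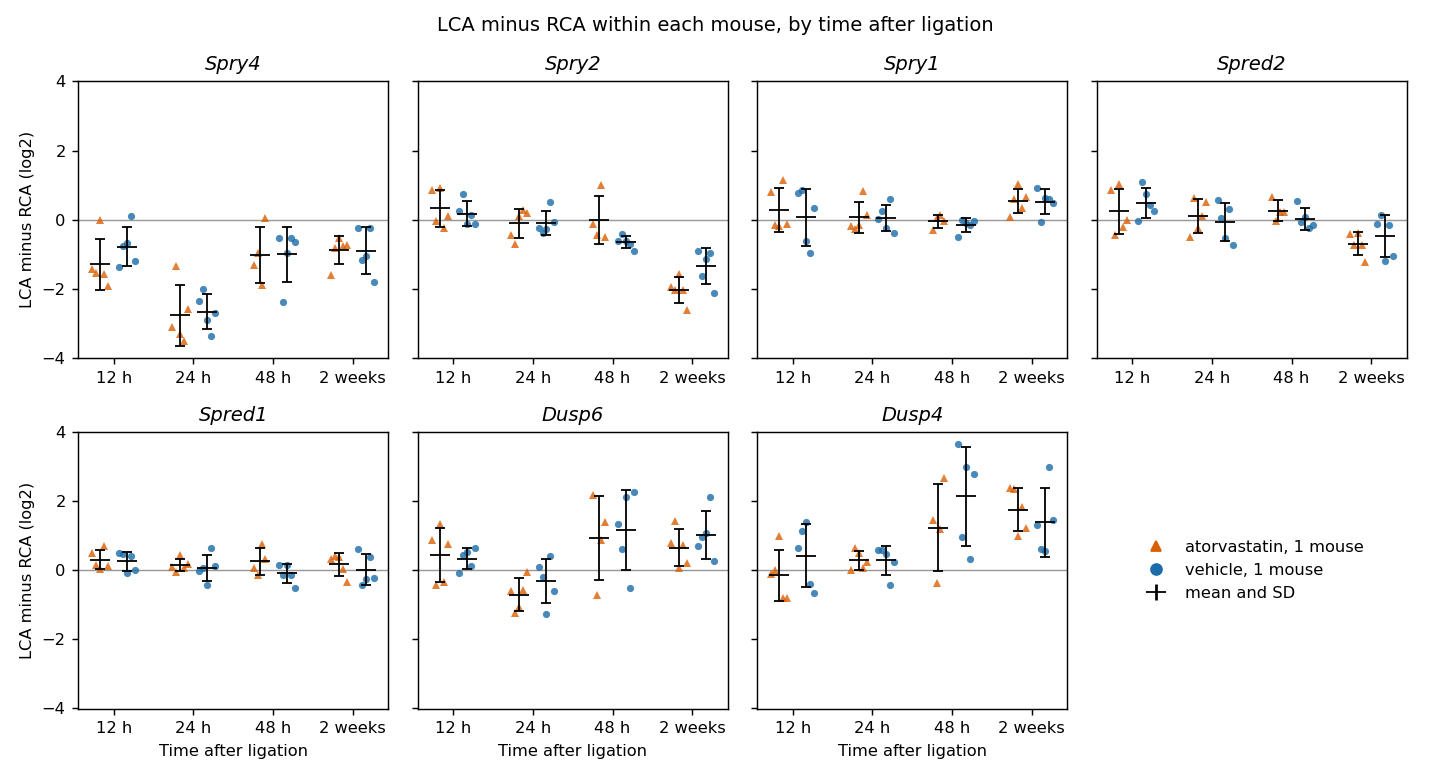
LCA minus RCA difference in log2 units (vertical axis) of 7 feedback genes in each mouse, against time after ligation. Orange triangles are atorvastatin mice, blue circles vehicle mice, and bars give the mean and SD of 4 or 5 mice. Spry4 is furthest below 0 at 24 h, Spry2 at 2 weeks, and Dusp4 and Dusp6 lie above 0 in most mice at 48 h and 2 weeks.

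Spry4 encodes a Sprouty protein that restrains signalling from RTKs to RAS and RAF. At 24 h its LCA values under atorvastatin were 5.58, 5.81, 4.88, 5.97 and 5.49, against RCA values of 8.70, 7.15, 8.18, 9.49 and 8.07 in the same mice. Under vehicle the LCA values were 5.78, 5.65, 6.02, 5.20 and 5.79, against RCA values of 8.14, 7.67, 8.93, 8.56 and 8.49. The arteries did not overlap in either treatment, and the LCA was lower in all 10 mice. The mean LCA minus RCA difference was -2.77 ± 0.30 (SE, n = 5 mice) under atorvastatin and -2.67 ± 0.30 (SE, n = 5) under vehicle, with limma adjusted p of 5.1e-08 and 1.22e-07. These are ratios of 0.146 and 0.157 of the LCA to the RCA. Each SE here and below came from limma with a variance shared by the 8 mouse groups. It does not measure the spread of the mice of 1 group. Leaving out any 1 mouse gave differences between -3.13 and -2.59 under atorvastatin and between -2.83 and -2.50 under vehicle.

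Other measures that differed between the arteries at 24 h are given here for Spry4. The log2 ratio of the 3 prime to the 5 prime Gapdh control probe sets, a sign of RNA integrity, averaged 4.56 ± 0.29 in the LCA and 4.10 ± 0.20 in the RCA under atorvastatin (SD, n = 5). Under vehicle it averaged 4.98 ± 0.47 in the LCA and 4.04 ± 0.24 in the RCA (SD, n = 5). With that ratio as a covariate the Spry4 difference was -2.80 under atorvastatin and -2.76 under vehicle. The covariate was the LCA minus RCA difference of the ratio, centred on its mean over all mice. These values thus hold at the average difference of the ratio, not at equal ratios in the arteries. Endothelial markers were slightly lower in the LCA, with median differences of the list mean of -0.21 and -0.27 under atorvastatin and vehicle, 1 of 12 markers called higher and 1 lower under atorvastatin, and 0 higher and 2 lower under vehicle. No macrophage or neutrophil marker was called at 24 h. The neutrophil list ran from 3.98 to 5.99 in the LCA and from 3.35 to 3.76 in the RCA under atorvastatin, and from 3.43 to 7.85 in the LCA and from 3.37 to 3.72 in the RCA under vehicle. The RCA of atorvastatin mouse 9, the highest in Spry4, had a smooth muscle list mean of 7.09, against 4.999 to 5.343 in the other RCAs of the group. Its part in the Spry4 value of that artery was not tested. Without that mouse the difference was -2.59, the smallest in size of the left-out values above.

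At the other times the Spry4 difference was smaller. At 12 h it was -1.298 ± 0.296 (SE, n = 5) under atorvastatin, adjusted p 0.0122, and -0.78 ± 0.30 (SE, n = 5) under vehicle, adjusted p 0.199. The atorvastatin value missed the threshold without mouse 7 (-1.24, adjusted p 0.0629) or mouse 10 (-1.14, adjusted p 0.0952). At 48 h it was -1.02 ± 0.33 (SE, n = 4) under atorvastatin and -1.01 ± 0.30 (SE, n = 5) under vehicle, with adjusted p of 0.0167 and 0.00747. At 2 weeks it was -0.89 ± 0.30 and -0.90 ± 0.30 (SE, n = 5 each), with adjusted p of 0.0209 and 0.0208.

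These later Spry4 calls were each lost when 1 mouse or another was left out. At 48 h the LCA was lower in 3 of 4 atorvastatin mice and 5 of 5 vehicle mice. By 2 weeks it was lower in all 5 mice of each treatment. At 48 h the atorvastatin call was lost without mouse 6 (-0.93, adjusted p 0.0898) or mouse 8 (-0.74, adjusted p 0.145). The vehicle call at 48 h was lost without mouse 2 (-0.66, adjusted p 0.0921), whose own difference was -2.40 against -0.96 to -0.52 in the other 4 mice. The LCA of that mouse also stood apart in skeletal muscle markers, whose list differed by 1.66 between its arteries, and the part of those markers was not tested. At 2 weeks the atorvastatin call was lost without mouse 6 (-0.71, adjusted p 0.114), and the vehicle call without mouse 2 (-0.83, adjusted p 0.0618), mouse 3 (-0.86, adjusted p 0.0614) or mouse 5 (-0.67, adjusted p 0.143). With the leading number of the sample title as a block, a number shared by both arteries of a mouse whose meaning the labels do not give, the differences at 12 h, 48 h and 2 weeks were -0.96, -0.36 and -0.64 under atorvastatin and -0.495, -0.14 and -0.496 under vehicle, and none passed. Those at 24 h did, at -2.37 under atorvastatin and -2.43 under vehicle. In that fit a difference is given at the lowest title number and is not an average over title numbers. This was so even where no mouse of the group had that number, as for vehicle at 48 h. There -0.14 lay outside the values of the mice, -2.40 to -0.52.

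The Spry4 levels varied over time in both arteries. In the LCA it averaged 6.48 ± 0.50, 5.55 ± 0.42, 5.73 ± 0.55 and 5.84 ± 0.29 at 12 h, 24 h, 48 h and 2 weeks under atorvastatin (SD, n = 5, and 4 at 48 h). In the RCA of the same mice it averaged 7.78 ± 0.67, 8.32 ± 0.86, 6.75 ± 0.74 and 6.73 ± 0.36. Under vehicle the LCA averaged 6.87 ± 0.83, 5.69 ± 0.30, 5.65 ± 0.67 and 6.22 ± 0.36, and the RCA 7.65 ± 0.79, 8.36 ± 0.48, 6.66 ± 0.65 and 7.12 ± 0.64 (SD, n = 5). The LCA was thus already low at 24 h and close to that level at 48 h, whereas the RCA was high at 24 h and lower at 48 h.

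In the mean of both treatments, Spry4 in the LCA fell by 1.06 ± 0.22 log2 between 12 h and 24 h (adjusted p 0.00656). Between 24 h and 48 h its LCA level differed by 0.07 ± 0.23, with a 95% interval of -0.40 to 0.55. In the RCA it differed by 0.63 ± 0.28 between 12 h and 24 h (adjusted p 0.104) and fell by 1.63 ± 0.29 between 24 h and 48 h (adjusted p 0.00372). The LCA minus RCA difference accordingly moved by -1.68 from 12 h to 24 h (adjusted p 0.00469) and by 1.70 from 24 h to 48 h (adjusted p 4.44e-05). Of all tested genes, 0.661% were called in the first of these changes of the difference and 43.1% in the second, and between 24 h and 48 h 47.4% were called in the LCA and 1.12% in the RCA. The comparisons of adjacent times within each artery were added after the values were seen. Spry4 has 4 probe sets of its single symbol, and all 4 were lower in the LCA at 24 h, with mean differences of -3.41 to -1.75 under atorvastatin and -2.90 to -1.22 under vehicle.

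**Figure D2:**
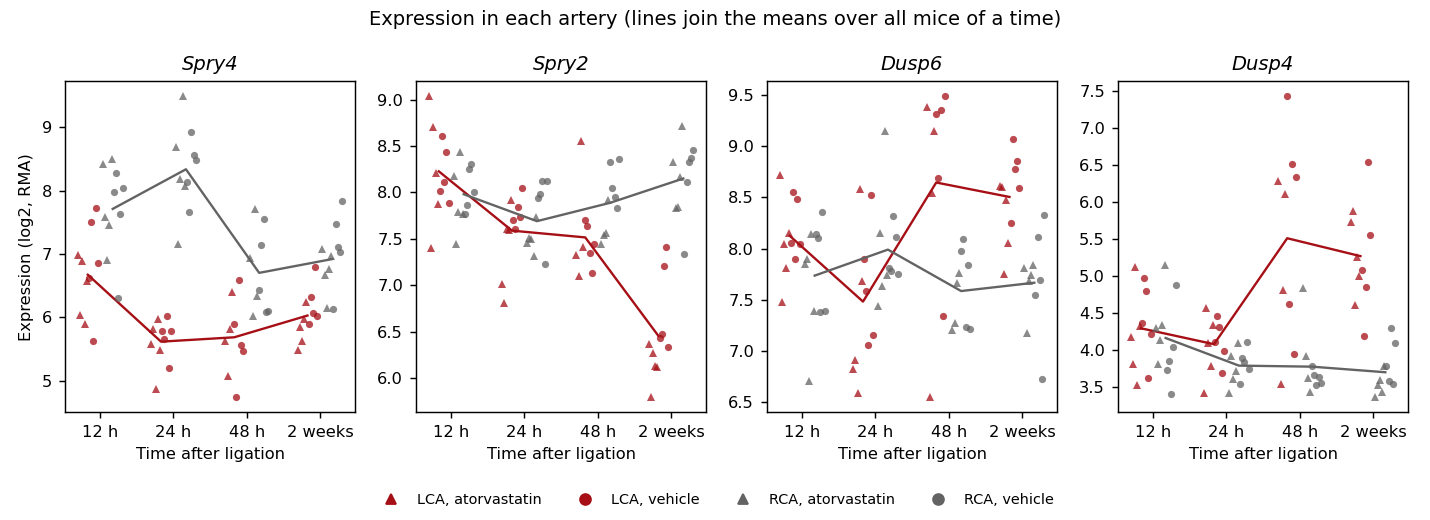
RMA log2 expression of 4 feedback genes (vertical axis, with its own range in each panel) in the LCA, red, and the RCA, grey, at each time after ligation. Triangles are atorvastatin mice, circles vehicle mice, and lines join the means over all mice of a time. The Spry4 RCA means are highest at 24 h, the Spry2 LCA values are lowest at 2 weeks, and Dusp6 and Dusp4 are spread widely in the LCA at 48 h.

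Spry2, another Sprouty gene, differed late. At 2 weeks its LCA values under atorvastatin were 6.37, 5.79, 6.27, 6.13 and 6.12, against RCA values of 8.33, 7.83, 7.84, 8.16 and 8.72. Under vehicle the LCA values were 6.43, 6.48, 7.20, 7.41 and 6.34, against RCA values of 7.34, 8.11, 8.33, 8.37 and 8.45. All 10 mice were lower in the LCA. The arteries did not overlap under atorvastatin and overlapped under vehicle, where the highest LCA exceeded the lowest RCA. The difference was -2.04 ± 0.20 (SE, n = 5) under atorvastatin, adjusted p 3.36e-10, and -1.35 ± 0.20 (SE, n = 5) under vehicle, adjusted p 1.43e-06. No single mouse decided either call, with values of -2.16 to -1.90 and -1.46 to -1.16 as each mouse was left out, and both passed with the title number as a block.

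At 48 h Spry2 was lower in the LCA under vehicle, with differences of -0.92 to -0.42 in the 5 mice (mean -0.65 ± 0.20, SE, adjusted p 0.00871), with arteries that did not overlap. That call was lost with the Gapdh ratio as a covariate, centred as for Spry4 (-0.51, adjusted p 0.0627). In this group the ratio averaged 3.95 in the LCA and 4.33 in the RCA. It was also lost with the title number as a block (-0.86, adjusted p 0.141). Under atorvastatin at 48 h the difference was -0.02 ± 0.22 (SE, n = 4, adjusted p 0.957), with mouse 8 at 0.99 and the other 3 between -0.50 and -0.12. At 12 h and 24 h no Spry2 difference passed, and the means lay between -0.11 and 0.32.

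In the LCA Spry2 averaged 8.24 ± 0.65, 7.39 ± 0.46, 7.60 ± 0.65 and 6.13 ± 0.22 over the 4 times under atorvastatin, and 8.21 ± 0.30, 7.79 ± 0.17, 7.45 ± 0.23 and 6.77 ± 0.50 under vehicle (SD). In the RCA it averaged 7.92 ± 0.39, 7.50 ± 0.15, 7.62 ± 0.21 and 8.18 ± 0.37 under atorvastatin, and 8.04 ± 0.24, 7.88 ± 0.37, 8.10 ± 0.23 and 8.12 ± 0.46 under vehicle (SD). Between 48 h and 2 weeks Spry2 in the LCA fell by 1.07 ± 0.19 (adjusted p 6.96e-05), a change in which 34.2% of all genes were called. In the RCA the same step was 0.29 ± 0.15 (adjusted p 0.481), where 0.458% were called. A second Spry2 probe set, dimmer than the first, also averaged lower in the LCA at 2 weeks, with differences of -1.27 under atorvastatin and -1.31 under vehicle. At 24 h it averaged -0.61 under atorvastatin and -0.73 under vehicle, where the probe set used averaged -0.11 and -0.09.

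Spred2, which recruits neurofibromin to switch RAS off, was lower in the LCA at 2 weeks under atorvastatin. Its LCA values were 6.88, 7.06, 6.49, 6.63 and 6.85, against RCA values of 7.31, 7.80, 6.88, 7.35 and 8.07, a mean difference of -0.70 ± 0.21 (SE, n = 5, adjusted p 0.0104). The LCA was lower in every mouse while the ranges of the arteries overlapped. The call was lost without mouse 10 (-0.57, adjusted p 0.0736) and with the title number as a block (-0.38, adjusted p 0.554). Under vehicle the difference was -0.48 ± 0.21 (SE, n = 5, adjusted p 0.0902), with mice 3 and 5 at -1.19 and -1.05 and the other 3 between -0.16 and 0.13, and it passed without mouse 2 (-0.63, adjusted p 0.0409) and with the mean of its 5 probe sets (-0.34, adjusted p 0.0136). With that mean its difference also moved by 0.28 from 24 h to 48 h (adjusted p 0.0334), against 0.13 for the probe set used (adjusted p 0.655). In the mean of both treatments the Spred2 difference moved by -0.73 ± 0.22 from 48 h to 2 weeks (adjusted p 0.0152), and its LCA level fell by 0.80 ± 0.14 over that step (adjusted p 6.78e-05). Of all genes, 19.9% were called for the first of these. At 12 h Spred2 was 0.24 ± 0.21 higher under atorvastatin and 0.48 ± 0.21 higher under vehicle (SE, n = 5 each), with adjusted p of 0.76 and 0.302.

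Spred1, the partner gene of Spred2, passed the test in none of the 8 comparisons of the arteries. Its differences lay between 0.15 and 0.31 under atorvastatin and between -0.09 and 0.27 under vehicle, with standard errors of 0.15 to 0.17. The probe sets of Spred1 disagreed. At 2 weeks under vehicle the brightest averaged 0.02 and the other 4 averaged 0.51 to 0.71, so that the mean of all 5 was called higher in the LCA (0.49, adjusted p 0.0112). Spry1 stayed near background, from 3.27 to 4.83 in the LCA and from 3.27 to 4.87 in the RCA. At 2 weeks it averaged 4.14 ± 0.33 in the LCA and 3.60 ± 0.12 in the RCA under atorvastatin, and 4.22 ± 0.32 and 3.71 ± 0.18 under vehicle (SD, n = 5). When every named gene was tested, these differences of 0.54 and 0.51 had adjusted p of 0.0622 and 0.0782. In the same fit of 17097 genes, and with both treatments averaged, Spry1 in the LCA rose by 0.73 ± 0.15 (SE) between 48 h and 2 weeks, with an adjusted p of 0.000452.

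The promoters of Spry2 and Spred2, which both fell in the LCA between 48 h and 2 weeks, and of Dusp6, which was higher there, are shown as windows of 300 bases, from 250 before to 50 after the annotated start. They are RefSeq sequences on build GRCm38.p6, read in the direction of the gene. The Spry2 window is chr14:105896770-105897069 on the minus strand, the Spred2 window chr11:19924192-19924491 on the plus strand and the Dusp6 window chr10:99262981-99263280 on the plus strand. Capitals mark matches, on either strand, to motifs of the factors that act at the end of the ERK route or respond to flow.
Spry2: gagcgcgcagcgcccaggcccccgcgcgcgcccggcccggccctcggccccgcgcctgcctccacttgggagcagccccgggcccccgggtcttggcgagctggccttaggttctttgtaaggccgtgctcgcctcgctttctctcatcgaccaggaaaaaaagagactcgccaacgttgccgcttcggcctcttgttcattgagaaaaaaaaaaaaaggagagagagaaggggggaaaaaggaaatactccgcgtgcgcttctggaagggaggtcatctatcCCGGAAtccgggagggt
Spred2: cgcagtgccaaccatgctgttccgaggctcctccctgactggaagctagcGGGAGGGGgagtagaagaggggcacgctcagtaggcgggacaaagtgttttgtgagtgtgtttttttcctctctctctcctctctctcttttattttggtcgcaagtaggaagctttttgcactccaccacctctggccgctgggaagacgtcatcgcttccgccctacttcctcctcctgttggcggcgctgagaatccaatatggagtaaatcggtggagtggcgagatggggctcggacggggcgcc
Dusp6: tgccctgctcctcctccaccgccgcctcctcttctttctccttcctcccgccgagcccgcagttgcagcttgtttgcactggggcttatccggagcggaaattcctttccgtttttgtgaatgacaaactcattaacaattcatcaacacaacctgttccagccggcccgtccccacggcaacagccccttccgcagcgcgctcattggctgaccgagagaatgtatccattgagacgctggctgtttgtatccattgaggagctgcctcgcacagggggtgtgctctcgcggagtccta
The Spry2 window held 1 match to the ETS core CCGGAA, the element bound by ERK-activated ETS factors, at position 34 after the start, and 14.9% of 32851 mouse promoters hold one. The Spred2 window held 1 match to CCNCNCCC, the element of KLF factors, here on the opposite strand at -200, and 49.5% of promoters hold one. The Dusp6 window held neither, and none of the 3 held the AP-1 element TGANTCA (7.8% of promoters), the cyclic AMP element TGACGTCA (1.8%) or the SRF box (1.6%). A match describes the letters of the window only.

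Dusp4, an inducible nuclear phosphatase of ERK, was higher in the LCA at 48 h. Its LCA values under atorvastatin were 6.28, 3.54, 4.81 and 6.11 in mice 6 to 9, against RCA values of 4.83, 3.92, 3.62 and 3.43. Under vehicle the LCA values of mice 1 to 5 were 7.43, 4.61, 6.52, 3.95 and 6.34, against RCA values of 3.78, 3.66, 3.53, 3.63 and 3.56. The LCA was higher in 3 of 4 atorvastatin mice and in 5 of 5 vehicle mice, where the arteries did not overlap. The difference was 1.23 ± 0.43 (SE, n = 4) under atorvastatin, adjusted p 0.0263, and 2.14 ± 0.38 (SE, n = 5) under vehicle, adjusted p 5.66e-05. The SD of the differences of these mice was 1.253 under atorvastatin and 1.425 under vehicle. With the spread taken from the compared group alone, the limma adjusted p was 0.165 and 0.0374. The atorvastatin call was lost without mouse 6 (1.16, adjusted p 0.105), mouse 8 (1.25, adjusted p 0.0627) or mouse 9 (0.75, adjusted p 0.284). The vehicle call held without any 1 mouse (1.76 to 2.59) and with the title number as a block (2.52, adjusted p 0.0165). Only 1 of 4 RCA arrays under atorvastatin and 0 of 5 under vehicle lay above the array median for Dusp4, so its RCA level was near background.

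At 2 weeks Dusp4 was higher in the LCA of all 10 mice. The differences were 2.37, 2.35, 1.01, 1.82 and 1.22 under atorvastatin and 1.297, 0.61, 0.55, 2.998 and 1.46 under vehicle. Their means were 1.75 ± 0.38 (SE, n = 5, adjusted p 0.000503) and 1.38 ± 0.38 (SE, n = 5, adjusted p 0.00601). The arteries did not overlap under atorvastatin and overlapped under vehicle. The vehicle call was lost without mouse 4 (0.98, adjusted p 0.0858). In both treatments 0 of 5 RCA arrays at 2 weeks lay above the array median for Dusp4, so these differences are set against a level near background and give no exact ratio. At 12 h and 24 h no Dusp4 difference passed, with means from -0.15 to 0.42.

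Dusp6, the cytoplasmic ERK phosphatase, had a similar course on a higher signal. At 48 h its LCA values under atorvastatin were 9.38, 6.55, 8.55 and 9.15, against RCA values of 7.21, 7.28, 7.67 and 7.76. Under vehicle the LCA values were 9.31, 8.69, 9.35, 7.34 and 9.49, against RCA values of 7.98, 8.09, 7.24, 7.84 and 7.22. In each treatment 1 mouse, number 7 and number 4, was lower in the LCA and the rest were higher. The difference was 0.93 ± 0.37 (SE, n = 4) under atorvastatin, adjusted p 0.051, and 1.16 ± 0.33 (SE, n = 5) under vehicle, adjusted p 0.00568. The SD of the differences of these mice was 1.224 under atorvastatin and 1.147 under vehicle. With the spread taken from the compared group alone, the limma adjusted p was 0.254 and 0.0882. The atorvastatin value passed without mouse 7 (1.48, adjusted p 0.00281), and narrowly with the stricter filter (adjusted p 0.0489), the mean of probe sets (0.0465) and the Gapdh ratio as a covariate (0.0497). The vehicle call was lost without mouse 3 (0.93, adjusted p 0.0566) or mouse 5 (0.89, adjusted p 0.0668), and with the title number as a block (1.17, adjusted p 0.185).

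At 2 weeks Dusp6 was higher in the LCA of all 10 mice, by 0.06 to 1.43 under atorvastatin and by 0.26 to 2.13 under vehicle. The mean differences were 0.65 ± 0.33 (SE, n = 5, adjusted p 0.142) and 1.03 ± 0.33 (SE, n = 5, adjusted p 0.0174). The vehicle call was lost without mouse 4 (0.75, adjusted p 0.143) and with the title number as a block (1.304, adjusted p 0.0754). At 24 h the Dusp6 values ran the other way, at -0.70 ± 0.33 under atorvastatin and -0.31 ± 0.33 under vehicle (SE, n = 5 each), and did not pass (adjusted p 0.164 and 0.584).

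In the mean of both treatments, the differences of both phosphatases were larger at 48 h than at 24 h, by 1.40 ± 0.40 for Dusp4 (adjusted p 0.00469) and 1.55 ± 0.34 for Dusp6 (adjusted p 0.000411). These steps lay in the LCA, where Dusp4 rose by 1.40 ± 0.36 (adjusted p 0.00203) and Dusp6 by 1.14 ± 0.30 (adjusted p 0.00236). In the RCA the same steps were 0.00 ± 0.17 for Dusp4 and -0.42 ± 0.21 for Dusp6, with adjusted p of 0.996 and 0.413. Between 48 h and 2 weeks the differences of Dusp4 and Dusp6 moved by -0.12 ± 0.40 and -0.21 ± 0.34, with adjusted p of 0.876 and 0.72.

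Leukocyte markers were high in the LCA at the same time. At 48 h all 5 tested neutrophil markers were called higher in both treatments, with list means of 5.41 to 9.76 in the LCA and 3.48 to 3.85 in the RCA under atorvastatin, and of 3.89 to 9.99 in the LCA and 3.43 to 4.10 in the RCA under vehicle. Of 8 macrophage markers, 8 were called higher under atorvastatin and 7 under vehicle, with list means of 5.88 to 8.13 in the LCA and 4.01 to 4.88 in the RCA, and of 7.10 to 7.90 in the LCA and 4.22 to 6.89 in the RCA. The mouse with the lowest Dusp4 and Dusp6 differences in each treatment also had the lowest LCA minus RCA difference of that treatment in both lists. Atorvastatin mouse 7, with differences of -0.38 for Dusp4 and -0.73 for Dusp6, had a neutrophil list difference of 1.93 and a macrophage list difference of 1.59. Vehicle mouse 4, with 0.315 for Dusp4 and -0.50 for Dusp6, had 0.025 for the neutrophil list and 0.59 for the macrophage list. Its macrophage list mean was 7.485 in the LCA, inside the range of its group, and 6.894 in the RCA, the highest there. The other 7 mice had neutrophil differences of 3.62 to 6.27 and macrophage differences of 1.25 to 3.66. Their differences ran from 0.96 to 3.65 for Dusp4 and from 0.60 to 2.27 for Dusp6. Vehicle mouse 2 had the lowest of these for both genes, with a neutrophil list difference of 4.89. At 24 h vehicle mouse 4 had a neutrophil list difference of 4.33, with -0.42 for Dusp4 and 0.41 for Dusp6. Of 12 endothelial markers, 7 were called lower and 2 higher at 48 h under atorvastatin, and 6 lower and 2 higher under vehicle. The part of the other cell types in the Dusp values was not tested.

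**Figure D3:**
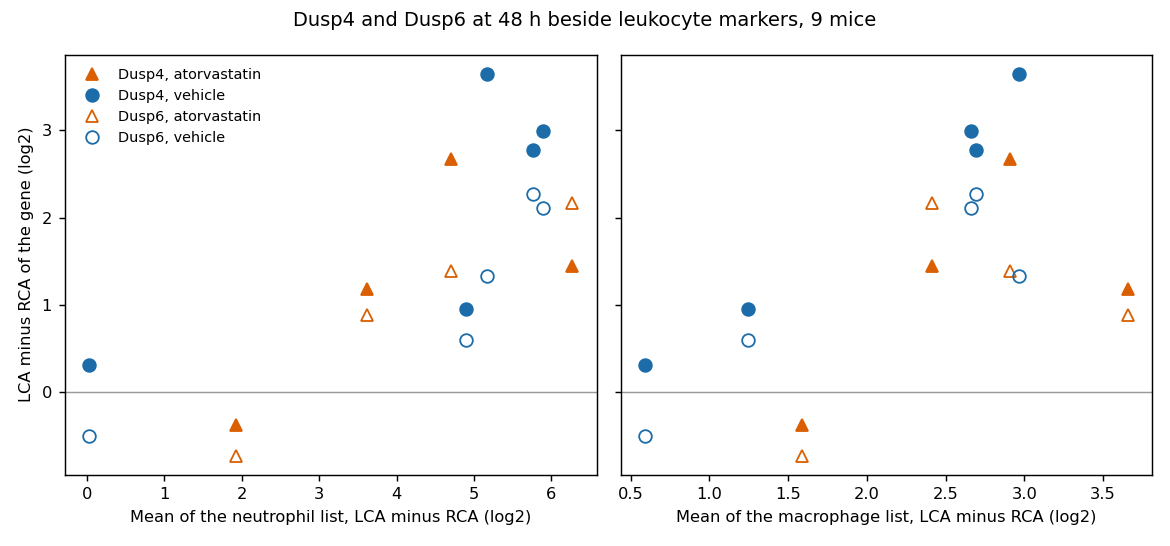
LCA minus RCA of Dusp4 (filled) and Dusp6 (open) at 48 h in log2 units (vertical axis), against the LCA minus RCA difference of the mean of 5 neutrophil markers (left) and 8 macrophage markers (right) in the same mouse. Triangles are 4 atorvastatin mice and circles 5 vehicle mice. The 2 mice with the lowest neutrophil differences, 1.93 under atorvastatin and 0.025 under vehicle, have the lowest Dusp4 and Dusp6 differences. Vehicle mouse 2 has 4.89 for the neutrophil list, 0.96 for Dusp4 and 0.60 for Dusp6.

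At 2 weeks markers of other cell types differed between the arteries as well. All 8 macrophage markers and all 6 tested smooth muscle markers were called higher in both treatments. The macrophage list ran from 8.38 to 9.15 in the LCA and from 4.25 to 5.14 in the RCA under atorvastatin, and from 8.66 to 9.20 in the LCA and from 3.44 to 6.03 in the RCA under vehicle. The smooth muscle list ran from 8.84 to 9.83 in the LCA and from 5.64 to 6.17 in the RCA under atorvastatin, and from 5.77 to 9.75 in the LCA and from 5.38 to 6.16 in the RCA under vehicle. Vehicle mouse 2, whose smooth muscle list differed by -0.15 against 2.47 to 3.80 in the other 4 mice, had differences of -1.63 for Spry2, 0.13 for Spred2, 0.61 for Dusp4 and 0.95 for Dusp6. Its Spred2 value was the only one above 0 in the group. Endothelial markers were called lower for 5 of 12 and higher for 3 under atorvastatin, and lower for 4 and higher for 3 under vehicle. T cell markers were called higher for 2 of 4 under atorvastatin and 4 of 4 under vehicle, with list differences of -0.60 to 1.40 and 1.002 to 1.94. The RCA of atorvastatin mouse 9 had a skeletal muscle list mean of 8.58, against 3.42 in its LCA, and the Spry2 and Dusp4 calls of that group held without that mouse. The part of these cell types in the values of Spry2, Spred2, Dusp4 and Dusp6 was not tested.

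The log2 ratio of the 3 prime to the 5 prime actin control probe sets also differed between the arteries. At 2 weeks it averaged -0.13 ± 0.16 in the LCA and -0.43 ± 0.12 in the RCA under atorvastatin (SD, n = 5), and -0.13 ± 0.20 in the LCA and -0.48 ± 0.13 in the RCA under vehicle (SD, n = 5). At 48 h it averaged -0.04 ± 0.18 in the LCA and -0.45 ± 0.08 in the RCA under atorvastatin (SD, n = 4), and -0.04 ± 0.26 in the LCA and -0.17 ± 0.19 in the RCA under vehicle (SD, n = 5). Its part in the values of the feedback genes was not tested.

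The change of the LCA minus RCA difference over the 4 times was tested as a whole. It passed for 5 of 6 genes under atorvastatin, Spry2, Spry4, Spred2, Dusp4 and Dusp6, and for 4 under vehicle, the same genes without Spred2. Of all genes, 33.5% and 32.9% passed. In the LCA alone, with both treatments averaged, 5 of 6 changed over time, where 69% of all genes did, with Spred1 the exception (adjusted p 0.526). In the RCA alone only Spry4 passed (adjusted p 0.000145), where 37.4% of all genes did, and Spry2 and Dusp4 had adjusted p of 0.0511 and 0.0849. Between adjacent times within the LCA, Spry4 was called from 12 h to 24 h, where 1.56% of all genes were called. Dusp4 and Dusp6 were called from 24 h to 48 h, where 47.4% of all genes were. Spry2 and Spred2 were called from 48 h to 2 weeks, where 34.2% of all genes were. In the RCA no feedback gene was called from 12 h to 24 h, where 24.2% of all genes were. For that step 3 of 6 had an unadjusted p under 0.05, as did 37.2% of all genes.

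The second question was whether atorvastatin altered these genes. No feedback gene passed in the LCA, in the RCA or in the LCA minus RCA difference, at any time or in the mean of the 4 times, in 30 tests each by limma, and 1, 3 and 2 of them had an unadjusted p under 0.05. Of all tested genes, 2.72% to 6.08% had such a p in the LCA, 3.98% to 11.2% in the RCA and 2.61% to 5.12% in the difference. Few genes of any kind passed. Of all tested genes, 0% were called in the LCA at each time and in the mean, between 0% and 0.0441% in the RCA (0.0441% at 12 h, 0.00882% at 2 weeks, 0.0176% in the mean), and up to 0.0176% in the difference (0.0176% at 2 weeks, 0.00882% at 12 h). The 2 unadjusted results in the difference were both of Spry2. Its LCA minus RCA difference was higher under atorvastatin than under vehicle by 0.63 at 48 h (95% interval 0.04 to 1.23, adjusted p 0.95) and differed by -0.69 at 2 weeks (interval -1.26 to -0.13, adjusted p 1). For Spry4 at 24 h, atorvastatin minus vehicle of the difference was -0.11 (interval -0.95 to 0.74). For Dusp4 at 48 h it was -0.90 (interval -2.07 to 0.26), a wide interval that spans 0. Between atorvastatin and vehicle in the mean over times, Spry2 in the RCA differed by -0.23 (interval -0.44 to -0.03, adjusted p 0.431).

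Genes around the feedback inhibitors in the ERK route came from 6 lists. As given above, neutrophil and macrophage markers at 48 h, and macrophage and smooth muscle markers at 2 weeks, were high in the LCA. The part of those cell types in the values of the 6 lists was not tested. The first list held ERK-responsive targets outside the 8 genes. At 48 h, 13 of 20 tested targets were called higher and 0 lower under atorvastatin, with a median difference of 1.09, and 9 were higher and 1 lower under vehicle, with a median of 0.80. The median of all tested genes was -0.01 and 0.01, and 31.8% and 36.2% of all tested genes were called in either direction at 48 h, the share against which the 48 h counts of each list stand. Among them Fos, an immediate early transcription factor, was higher by 3.65 ± 0.86 under atorvastatin and 3.28 ± 0.77 under vehicle, and Egr2, another, by 3.49 ± 0.81 and 3.15 ± 0.73 (SE). Myc, a driver of growth, was higher by 2.55 ± 0.53 under atorvastatin and 1.87 ± 0.47 under vehicle.

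At 24 h, 13.1% of all tested genes were called under atorvastatin and 14.3% under vehicle. At that time 4 targets were called lower and 0 higher in each treatment. They included the cyclin gene Ccnd1, at -1.03 ± 0.35 under atorvastatin and -1.36 ± 0.35 under vehicle, and the membrane protein gene Emp1, at -1.48 ± 0.30 and -0.96 ± 0.30 (SE). At 2 weeks, 5 targets were higher and 3 lower under atorvastatin, and 6 higher and 2 lower under vehicle. The share of all tested genes called at 2 weeks was 29.9% under atorvastatin and 27.8% under vehicle. Etv5, an ETS transcription factor, was higher at 2 weeks by 2.05 ± 0.38 under atorvastatin and 2.76 ± 0.38 under vehicle (SE). At 12 h, when 1.68% of all tested genes were called under atorvastatin and 2.39% under vehicle, no target was called.

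Of the growth factor ligands, 5 of 16 tested were called higher and 2 lower at 48 h in each treatment. Hbegf, a ligand of the EGF receptor, was higher by 3.98 ± 0.72 under atorvastatin and 3.26 ± 0.65 under vehicle, and Pdgfb, a ligand of PDGF receptors, by 2.49 ± 0.33 and 2.39 ± 0.30 (SE). Angpt2, a ligand of the receptor Tek, was already called at 12 h, at 2.17 ± 0.59 under atorvastatin and 3.15 ± 0.59 under vehicle. Of 19 receptor tyrosine kinases tested, 5 were higher and 4 lower under atorvastatin at 48 h, and 3 higher and 5 lower under vehicle. Fgfr3, a receptor for FGFs, was lower at all 4 times, at -1.25, -1.56, -1.87 and -2.48 under atorvastatin and -1.31, -1.35, -2.06 and -2.39 under vehicle. Fgfr2 was higher at 2 weeks, by 4.66 ± 0.42 under atorvastatin and 3.39 ± 0.42 under vehicle (SE).

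Of 16 tested genes of the RAS, RAF, MEK and ERK core and its adaptors, 0 were called at 12 h in either treatment. At 24 h 2 were higher and 5 lower under atorvastatin and 2 higher and 2 lower under vehicle. Of all tested genes, 13.1% and 14.3% were called at 24 h in these treatments. At 48 h 1 was higher and 3 lower under atorvastatin and 2 higher and 3 lower under vehicle. The medians at 48 h were -0.07 and -0.24. Map2k1, which encodes MEK1, was higher by 0.70 ± 0.19 under atorvastatin and 0.53 ± 0.17 under vehicle, and Rras, a small GTPase related to RAS, was lower, at -1.58 ± 0.30 and -0.999 ± 0.271 (SE).

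None of the 7 other MAP kinase phosphatases was called higher at any time in either treatment. Dusp8, a phosphatase of JNK and p38, was lower at 24 h, 48 h and 2 weeks, at -1.70, -1.81 and -2.36 under atorvastatin and -2.51, -1.68 and -2.47 under vehicle. Of 17 other brakes on receptors and RAS, 4 were called higher and 6 lower at 48 h under atorvastatin, and 4 and 4 under vehicle. Errfi1, an inhibitor of the EGF receptor, was higher by 2.92 ± 0.62 under atorvastatin and 2.03 ± 0.56 under vehicle, and Ptprj, a receptor-type phosphatase, was lower, at -2.24 ± 0.26 and -2.36 ± 0.23 (SE).

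**Figure D4:**
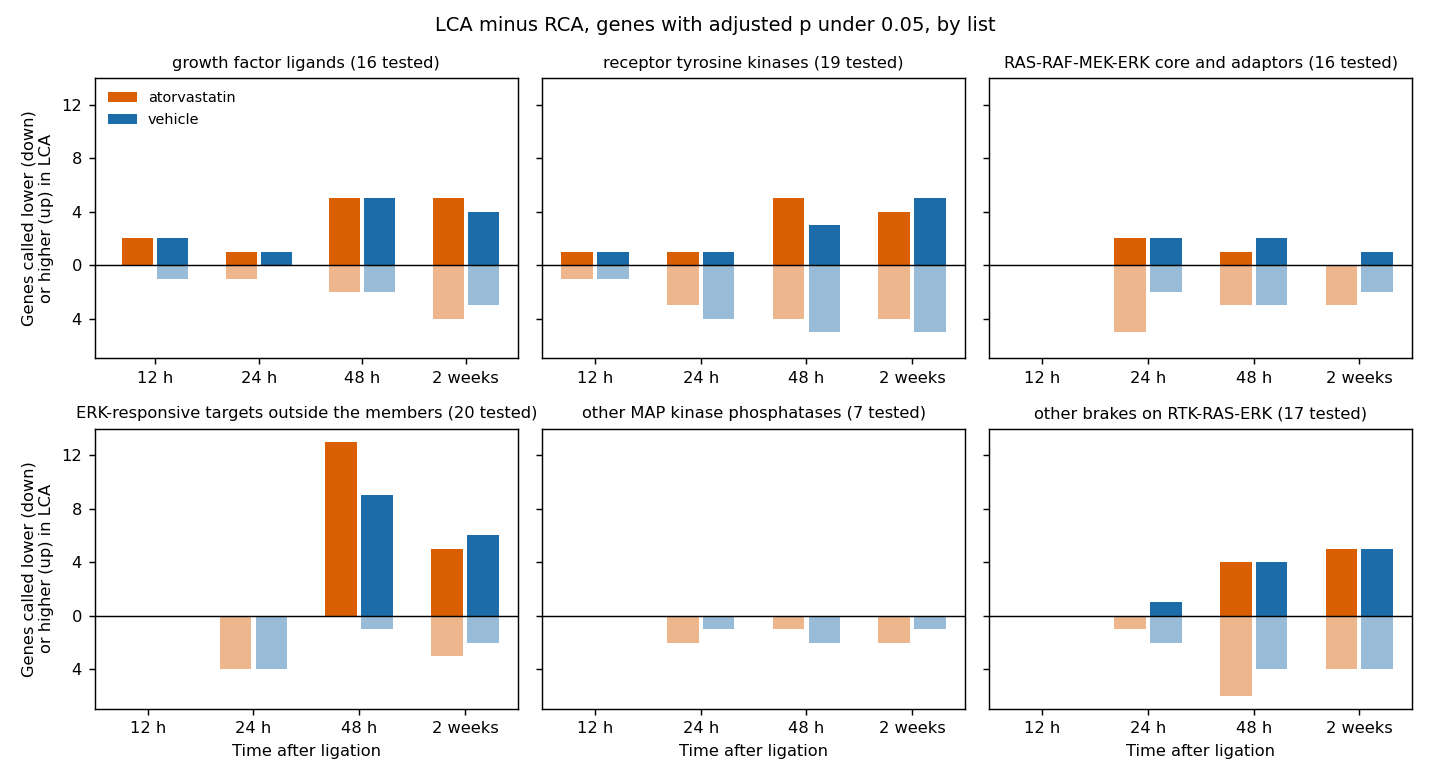
Number of genes of 6 lists called higher (up, solid) or lower (down, pale) in the LCA than in the RCA, at each time after ligation, under atorvastatin (orange) and vehicle (blue). The ERK-responsive targets have 13 and 9 genes higher at 48 h and 4 lower at 24 h in each treatment, while no other MAP kinase phosphatase is higher. Of all tested genes, 13.1% (atorvastatin) and 14.3% (vehicle) were called at 24 h, and 31.8% and 36.2% at 48 h.

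The genes whose LCA minus RCA difference was most like that of each feedback gene were found by Pearson's r over the 39 mice. The points share treatment, time and array effects, so r is a description. Spry2 was closest to Ampd3 (r = 0.903), which encodes an AMP deaminase, then to Cystm1 (0.872) and the transcription factor gene Cebpd (0.865). Spry4 was closest to the calpain gene Capn2 (0.748), then the membrane protease gene St14 (0.739) and Id1 (0.697), an inhibitor of helix-loop-helix factors. Spred2 was closest to Ces2g and to Plat, the tissue plasminogen activator gene (0.726 each), then Adk (0.719).

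Dusp4 was closest to the mitotic kinase gene Pbk (0.839), the histone variant gene H2az1 (0.83) and Mvd (0.825), an enzyme of the mevalonate route. Dusp6 was closest to the nuclear transport gene Cse1l (0.846), Cycs (0.845), which encodes cytochrome c, and Tfdp1 (0.83), the partner of E2F factors. The values for Spred1 were lower, with Stau1 (0.507), Wiz (0.503) and Ext1 (0.475) its closest. Among the feedback genes themselves the highest were Spry2 with Spred2 (0.688), Dusp4 with Dusp6 (0.647) and Spry4 with Dusp6 (0.522), and the lowest was Spry2 with Dusp4 (-0.429).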

How the data were processed

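Per the labels' protocols, endothelial RNA was flushed from both carotid arteries with Qiazol, isolated with a miRNEasy kit, and hybridised as biotin-labelled cRNA. The deposited log2 values are RMA values made by the authors (submitters' processing notes, which give no version). They span 1.79 to 13.235, array medians lie between 4.59 and 4.77, and they were used as given. The number of arrays limits the precision.

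Of 45118 probe sets, 81 controls were left out, 28898 had 1 symbol, 551 several and 15588 none. The brightest probe set stood for a gene with several (7180 of 17097 genes).

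Groups came from the labels, and both arteries share a mouse number there. The arteries of a mouse were paired by design. Deviations of the 2 arteries from their group means had a median correlation of 0.088 over 39 mice (range -0.34 to 0.513), over 0.1 in 19. The within-mouse difference was fitted with limma 3.58.1 (statmod 1.5.0, R 4.3.3) over 8 mouse groups with a shared variance, and LCA and RCA levels were fitted likewise. Benjamini-Hochberg adjustment covered all 11344 tested genes, and a gene was called at an adjusted p under 0.05. The design named 8 genes for testing, and 6 could be tested. Simulated data for LCA minus RCA under vehicle at 24 h, with 200 changed genes among 11344, recovered 77.2% of changes of log2 1 and 98% of log2 2, with 5.3% false calls.

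The genes named were the 8 members, the 3 genes most like each by r and genes among the 4 largest called of each list in a comparison. The members and lists were chosen with earlier results of these data known. The alternatives were no pairing, other filters, quantile normalization or median centring, the mean of a gene's probe sets, other variance estimates, the title number as a block, the Gapdh ratio as a covariate, and each mouse left out in turn. Promoter windows were taken for 6 of the genes, without Spry4 and Dusp4, and 3 are shown.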

Additional observations from a re-analysis of the deposited data

Results flagged for a closer look

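In groups of 4 or 5 mice, 168 sets of values of the 7 genes were examined for a value far from the others, and 6 (3.6%) held one, where chance gives about 5%. The RCA level of Spry2 in vehicle mouse 4 at 24 h was 7.231, against 7.938 to 8.117 in the other mice. The Spry4 difference of atorvastatin mouse 8 at 12 h was -0.02, against -1.916 to -1.431. That of atorvastatin mouse 6 at 2 weeks was -1.593, against -0.817 to -0.525, and that of vehicle mouse 2 at 48 h was -2.398, against -0.96 to -0.524. The RCA level of Spred1 in atorvastatin mouse 10 at 2 weeks was 7.872, against 7.357 to 7.501. The RCA level of Dusp6 in atorvastatin mouse 7 at 2 weeks was 7.176, against 7.687 to 7.841.

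The LCA minus RCA difference itself was compared between adjacent times by the limma test, in the mean of both treatments. It differed in 6 of 18 tests. Of all tested genes, 0.661% were called from 12 h to 24 h, 43.1% from 24 h to 48 h and 19.9% from 48 h to 2 weeks. The 6 cases were Spry4 at 24 h against 12 h (-1.682) and at 48 h against 24 h (1.704), Dusp4 (1.395) and Dusp6 (1.553) at 48 h against 24 h, and Spred2 (-0.734) and Spry2 (-1.359) at 2 weeks against 48 h. Each passed as any 1 mouse was left out. All but that of Spred2 (-0.60, adjusted p 0.171) also passed with the title number as a block.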

How the results depend on the processing

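The Spry4 calls at 24 h, the Spry2 calls at 2 weeks, the Dusp4 call at 2 weeks under atorvastatin and the Dusp4 call at 48 h under vehicle passed in every fit that tested them. The stricter filter, which asked for 39 arrays above the array median, left Dusp4 untested. Dusp4 had entered the other fits only through its LCA arrays, those of the artery in which it was high. With the title number as a block, the calls between arteries were 3 in place of 8 under atorvastatin. Under vehicle they were 4 in place of 9. Of the F tests over time, 5 passed in place of 9. That fit leaves fewer degrees of freedom. It also gives each difference between arteries at the lowest title number, not averaged over title numbers. Without pairing (no replicate block) the calls were 5 under atorvastatin and 8 under vehicle, and of the 8 paired calls under atorvastatin Spry4 at 12 h, 48 h and 2 weeks were lost, with adjusted p of 0.057, 0.0518 and 0.0639. Over time in the RCA, 2 genes passed in place of 1 with the stricter filter, quantile normalization, median centring and the trend and robust estimate. As each mouse was left out, the calls ranged from 6 to 9 under atorvastatin, from 7 to 9 under vehicle, from 7 to 10 over time and from 1 to 3 in the RCA over time. The step of the Spred1 difference from 24 h to 48 h, -0.03, turned to 0.40 (adjusted p 0.0296) with the mean of its probe sets. With the spread taken from the compared groups alone, Spry4 at 12 h (adjusted p 0.214) and 48 h (0.126) and Dusp4 at 48 h (0.165) were lost under atorvastatin, and Dusp6 (0.0882) and Spry4 (0.058) at 48 h under vehicle, while Dusp6 at 2 weeks under atorvastatin passed (0.0371). No alternative gave a call for atorvastatin against vehicle. Signals near background limit Spry1 and Dusp4, and no unoperated artery was compared.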
